A study of Mus musculus with 10 samples.

Results

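Transcript levels of 7 genes for voltage-gated ion channels of the heart were followed in mouse cardiomyocytes after Cre-directed deletion of Actn2, the gene of a protein that crosslinks actin at the Z-disc of the sarcomere. The genes were listed by name, with earlier results of these data known, and comprise the sodium channel genes Scn4a and Scn4b, the pacemaker channel genes Hcn2 and Hcn4, and the calcium channel genes Cacna1c, Cacna1g and Cacna1h. All 7 are among the 23337 genes of the deposited count table. RNA was read from sorted cardiomyocytes of 10 mice, 5 with both Actn2 alleles floxed (Actn2-FF, the knockout) and 5 with 1 floxed allele (Actn2-F+, the heterozygote, used here as the control). A floxed allele carries target sites for the recombinase Cre. Every animal, controls included, was given AAV9-cTNT-Cre on postnatal day 1 and was sampled on postnatal day 14, so that controls too could lose 1 copy of Actn2. Cre was driven by a cardiac troponin T promoter, which acts in cardiomyocytes, and delivery by virus need not reach every cell. The labels name neither the sorting marker nor the chambers taken, and the series text calls the 5 samples of each group biological replicates.

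Voltage-gated sodium channels carry the fast upstroke of the action potential, and calcium channels carry the slower inward current that triggers contraction. Each has a large pore-forming alpha subunit, and in many of them smaller beta subunits bind to it and adjust gating and surface delivery. HCN channels open when the membrane becomes more negative, are tuned by cyclic AMP and carry the pacemaker current of the sinus node and conduction system; the T-type calcium channels open at low voltages, are abundant in the embryonic heart and recede from the working ventricle after birth.

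Of the 7 channel genes, 5 changed between the genotypes. Transcripts of Scn4a, Scn4b and Hcn2 were lower in the knockout, to 0.276, 0.163 and 0.409 of the heterozygote level in the fit over all genes. Transcripts of Cacna1g and Cacna1c were higher, 2.07-fold and 1.34-fold. Hcn4 and Cacna1h did not pass the test, and both ranged widely among the heterozygotes. Across the whole table, 18.9% of the 11870 tested genes were called, with 10.2% higher and 8.64% lower, by edgeR's quasi-likelihood test at a Benjamini-Hochberg adjusted p below 0.05. The same 5 channel genes had groups that did not overlap, a property of 14.7% of tested genes (8.41% with the knockout above, 6.32% with it below). Of all calls, 54.3% were higher in the knockout, or 68.9% when samples were scaled by library totals alone; the 5 channel genes were called in the same direction under both. The median log2 fold change was -0.016 over the 7 genes and 0.0023 over all tested genes. In the plot of levels by animal, the 5 changed genes show separate clouds and the other pair show interleaved ones.

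**Figure D1:**
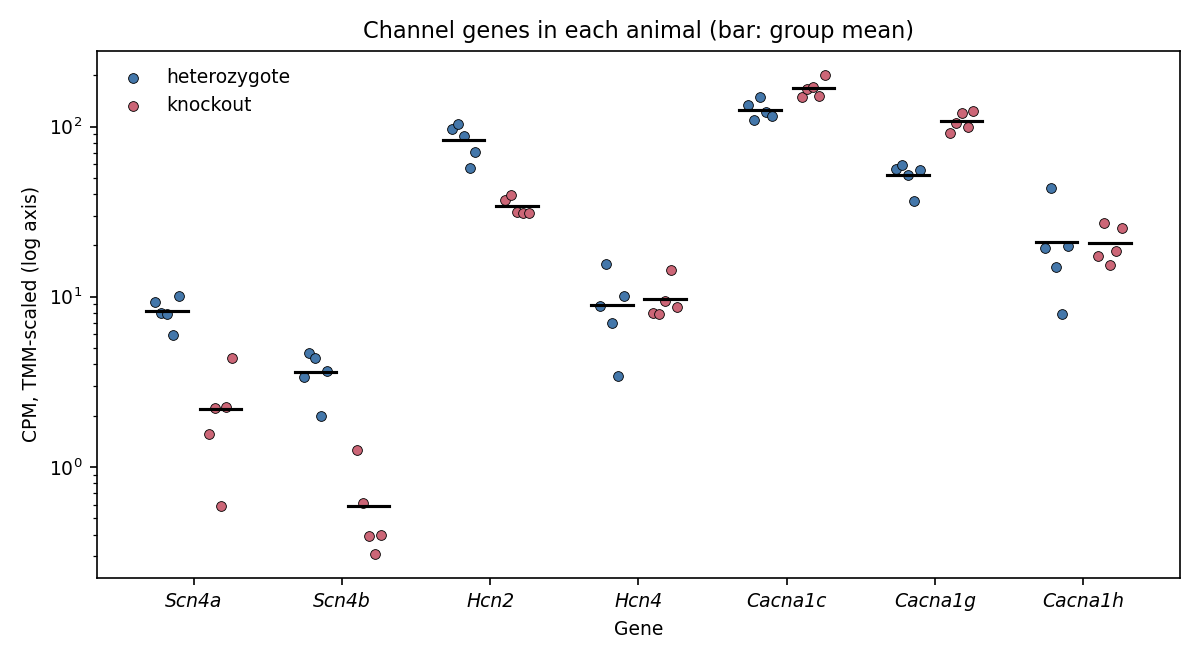
Level of each channel gene in CPM (scaled to library totals corrected by TMM factors, log axis) in every animal. Heterozygote and knockout are side by side, points are animals and lines are group means over 5 animals. Knockout animals lie below all heterozygotes for Scn4a, Scn4b and Hcn2, above all of them for Cacna1c and Cacna1g, and among them for Hcn4 and Cacna1h.

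Total counts ran from 8086656 to 25237696 per animal, and 3 counts, taken as the smallest level shown, correspond to 0.126 to 0.384 CPM. Levels below are CPM scaled by TMM factors, which correct totals for composition. Actn2 fell in every knockout, from 3180.5 ± 358 to 1217 ± 55.3 CPM (SD, n = 5 each), which checks the labels. The 8 working cardiomyocyte markers used to check cell type were chosen with earlier results of these data known. They summed to 95783 to 119239 CPM in heterozygotes and 92374 to 118005 CPM in knockouts. By edgeR, DESeq2 or limma, 0 of 8 were called (1 of 8 at an unadjusted p below 0.05 in edgeR). Since whole samples were sequenced, fewer cells of a type and less RNA per cell cannot be told apart.

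Scn4a encodes the pore subunit of the sodium channel that predominates in skeletal muscle, and the heart holds small amounts of it. The gene spans bases 106318593 to 106349390 of chromosome 11 on the minus strand (mm10), in 24 exon blocks. In heterozygotes 1 to 5 its level was 9.32, 7.98, 7.95, 5.99 and 10.0 CPM. In knockouts 1 to 5 it was 1.56, 2.21, 0.585, 2.26 and 4.36 CPM. The highest knockout lay below the lowest heterozygote, and knockout 3, with 6 counts, was the lowest of all. The means were 8.26 ± 1.55 CPM in heterozygotes and 2.20 ± 1.38 CPM in knockouts, a log2 fold change of -1.86 (standard error 0.347, adjusted p = 0.00193 by edgeR's quasi-likelihood test with Benjamini-Hochberg adjustment). Among knockouts the highest level was 7.44 times the lowest, against 1.67 times among heterozygotes, with 6 to 77 counts behind the knockout values.

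Scn4b encodes a beta subunit with a single extracellular immunoglobulin-like fold, which pairs with cardiac sodium channel pores. It lies on chromosome 9 at bases 45139042 to 45154061 of the plus strand, in 5 exon blocks. Heterozygotes 1 to 5 gave 3.36, 4.67, 4.36, 1.998 and 3.64 CPM, from 80, 38, 34, 18 and 37 counts. Knockouts 1 to 5 gave 1.25, 0.611, 0.390, 0.308 and 0.396 CPM, from 12, 8, 4, 3 and 7 counts. Every knockout lay below every heterozygote, and knockout 1 was the highest of its group. The means were 3.60 ± 1.04 and 0.591 ± 0.385 CPM. The log2 fold change of -2.62 (standard error 0.377, edgeR adjusted p = 0.000276) was the most negative of the 7 genes. Scn4b passed the filter on low counts through its heterozygotes, since most knockouts lay below the level that the filter asks for. Fitted without that filter, its log2 fold change was -2.61 (edgeR adjusted p = 0.000167). Because knockout levels rest on 3 to 12 counts, the size of the fall is less certain than its direction, with a 95% interval of 0.093 to 0.285 of the heterozygote level.

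Stretches upstream of the start of Scn4a, Scn4b and Hcn2 are printed because these are the channel genes whose transcripts fell. They are the 250 bases before the annotated start, 5′ to 3′ on the gene's strand, from RefSeq's annotation of GRCm38.p6 (mm10), of which the table of promoters used here held 5 of the 7 genes. Capitals mark matches to any of the 7 motifs searched.
Scn4a, chr11:106349391-106349640, minus strand: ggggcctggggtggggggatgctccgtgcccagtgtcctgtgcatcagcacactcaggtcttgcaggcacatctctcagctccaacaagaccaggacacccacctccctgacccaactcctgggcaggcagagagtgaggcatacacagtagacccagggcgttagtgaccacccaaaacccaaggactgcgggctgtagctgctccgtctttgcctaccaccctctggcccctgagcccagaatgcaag
Scn4b, chr9:45138374-45138623, plus strand: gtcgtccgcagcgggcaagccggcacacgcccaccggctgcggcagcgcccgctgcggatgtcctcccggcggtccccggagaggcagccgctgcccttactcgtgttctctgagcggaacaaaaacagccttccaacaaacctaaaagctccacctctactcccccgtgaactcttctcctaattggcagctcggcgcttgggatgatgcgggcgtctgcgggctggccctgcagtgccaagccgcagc
Hcn2, chr10:79716384-79716633, plus strand: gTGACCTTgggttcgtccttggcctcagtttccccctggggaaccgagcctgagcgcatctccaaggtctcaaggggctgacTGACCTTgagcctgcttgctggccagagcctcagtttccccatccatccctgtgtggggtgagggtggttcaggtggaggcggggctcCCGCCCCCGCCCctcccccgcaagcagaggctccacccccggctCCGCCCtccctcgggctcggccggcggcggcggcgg
The RefSeq start of Scn4b lies 418 bases before the start in the count table's annotation. Motifs were searched on both strands of the 300 bases from 250 before to 50 after the start. They were the TATA box TATAAA, the GC box GGGCGG, the extended nuclear receptor site AAGGTCA (the letters bound by oestrogen-related receptors, among others), the T-box core GGTGTG, the GATA site AGATAA, and the cores CAGCACC and GGACAGC of the site of REST, a repressor of channel genes. No match overlapped that of another motif.

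Of 32841 windows, 13.62% held TATAAA, 35.67% GGGCGG, 4.72% AAGGTCA, 19.05% GGTGTG, 11.18% AGATAA, 7.14% CAGCACC and 6.56% GGACAGC. The window of Hcn2 held AAGGTCA at 2 places on the opposite strand, beginning 249 and 168 bases before the start and printed as TGACCTT; 0.18% of windows held it at 2 or more places. It also held 3 matches to the GC box on that strand, of which 2 adjoin each other. The GC box also occurred at 2 places in the window of Hcn4, which did not pass the test, and at 6 places in 1 of the 3 windows of Cacna1c, which rose. Most of those 6 matches overlap one another in a short repeat. The start of that window lies inside the gene, downstream of the start in the count table's annotation. Of all windows, 19.5% held the GC box at 2 or more places. The windows of Scn4a and Scn4b held none of the 7 motifs. GC content was 63.0% for Scn4a, 66.3% for Scn4b and 72.3% for Hcn2, against a median of 52.7%, and CpG pairs numbered 4, 26 and 26 against a median of 7. These are matches of letters, and the data hold no measurement of binding.

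Hcn2 encodes the HCN channel that prevails in ventricular muscle. It lies on chromosome 10, bases 79716634 to 79736108 of the plus strand, in 8 exon blocks. Heterozygotes 1 to 5 gave 96.3, 104, 87.8, 57.2 and 70.5 CPM, and knockouts 1 to 5 gave 36.9, 39.9, 31.3, 31.0 and 31.0 CPM. Every knockout was below the lowest heterozygote, animal 4, and the knockouts were tightly placed, with the highest 1.29 times the lowest. The means of 83.1 ± 19.1 and 34.0 ± 4.12 CPM gave a log2 fold change of -1.29 (standard error 0.151, edgeR adjusted p = 4.63e-05). The depth behind it was 302 to 2292 counts per animal.

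Hcn4 encodes the main pacemaker channel of the sinus node. The gene lies on chromosome 9, bases 58823512 to 58860955 of the plus strand, in 8 exon blocks. Its level was 8.78, 15.5, 7.05, 3.44 and 10.0 CPM in heterozygotes 1 to 5 and 8.02, 7.87, 9.46, 14.4 and 8.71 CPM in knockouts 1 to 5. The heterozygotes held both the highest value, in animal 2, and the lowest, in animal 4, and the knockouts lay between. The means were 8.96 ± 4.41 and 9.69 ± 2.69 CPM, a log2 fold change of 0.11 (standard error 0.301, edgeR adjusted p = 0.842). The 95% interval of the knockout level ran from 0.691 to 1.69 of the heterozygote level.

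Hcn2 and Hcn4 both encode HCN channels, and the longest identical run of their GENCODE M21 coding sequences (GRCm38, mm10) is shown. It bears on whether reads could be assigned to either gene. The run (capitals, with 24 bases on either side) is 32 bases long and begins at base 1171 of the 2589 coding bases of Hcn2 and base 1405 of the 3603 of Hcn4.
Hcn2: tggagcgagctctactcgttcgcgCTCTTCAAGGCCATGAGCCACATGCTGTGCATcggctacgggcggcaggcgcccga
Hcn4: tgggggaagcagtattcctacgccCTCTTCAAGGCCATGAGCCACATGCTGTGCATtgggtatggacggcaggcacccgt
It codes for the stretch that leads into the selectivity filter of the pore, and the bases that follow differ between the genes. Windows of 50 bases were taken from each gene's transcript with the longest coding sequence, and other transcripts were not searched. No such window of either gene recurred in transcripts of another gene (0 for each). The length of the study's reads is not given in the sources used here.

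The share of Hcn4 in the sum of Hcn2 and Hcn4 was computed from counts divided by exon length, without a test. Hcn4 made up 8.02% ± 2.77 of the pair in heterozygotes and 19.4% ± 5.43 in knockouts, with ranges of 4.82% to 11.1% and 14.2% to 28.1% that did not overlap. In the same animals the level of Hcn2 was lower, while that of Hcn4 did not pass the test. Counts of the pair summed to 546 to 2501 per heterozygote and 418 to 702 per knockout.

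Cacna1c encodes the pore subunit of the cardiac L-type calcium channel, through which calcium enters to trigger release from the sarcoplasmic reticulum. The gene spans bases 118592296 to 119196409 of chromosome 6 on the minus strand, in 52 exon blocks. Heterozygotes 1 to 5 gave 133, 109, 149, 121 and 116 CPM, and knockouts 1 to 5 gave 150, 166, 171, 151 and 202 CPM. The groups did not overlap, but they all but touched, with knockout 1 at 149.8 CPM and heterozygote 3 at 149.04 CPM. The means were 126 ± 15.9 and 168 ± 21.0 CPM, a log2 fold change of 0.42 (standard error 0.112, edgeR adjusted p = 0.0168). It was the smallest of the 5 changes, and its 95% interval ran from 1.13-fold to 1.58-fold.

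Cacna1g encodes a T-type channel pore. It lies on chromosome 11, bases 94408391 to 94474198 of the minus strand, in 36 exon blocks. Levels were 56.4, 59.6, 52.2, 36.7 and 55.9 CPM in heterozygotes 1 to 5 and 91.9, 105, 119, 99.96 and 124 CPM in knockouts 1 to 5. The lowest knockout stood well above the highest heterozygote, and heterozygote 4 lay apart below its group. The means of 52.2 ± 9.01 and 108 ± 13.3 CPM gave a log2 fold change of 1.05 (standard error 0.130, edgeR adjusted p = 8.01e-05).

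Cacna1h encodes the other T-type pore of the heart. It lies on chromosome 17, bases 25374287 to 25433783 of the minus strand, in 35 exon blocks, of which up to 156 bases lie opposite exons of Tpsg1 on the plus strand; the counting did not use strand, so reads there cannot be assigned. Levels were 19.3, 43.3, 14.99, 7.88 and 19.9 CPM in heterozygotes 1 to 5 and 17.3, 27.0, 15.3, 18.6 and 25.2 CPM in knockouts 1 to 5. As for Hcn4, heterozygote 2 was the highest animal and heterozygote 4 the lowest, and the knockouts lay between. The means were 21.1 ± 13.3 and 20.7 ± 5.13 CPM, with a log2 fold change of -0.016 (standard error 0.327, edgeR adjusted p = 0.980) and a 95% interval of 0.609 to 1.61 of the heterozygote level. Whether the responses of the 2 T-type genes differ from each other was not tested.

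The T-type pair also share sequence, and their longest identical coding run is printed for the same reason as that of the HCN pair. It is 41 bases long (capitals, with 24 bases on either side), beginning at base 1030 of the 7143 coding bases of Cacna1g and base 1102 of the 7077 of Cacna1h.
Cacna1g: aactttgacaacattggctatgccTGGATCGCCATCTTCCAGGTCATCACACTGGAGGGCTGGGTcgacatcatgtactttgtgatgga
Cacna1h: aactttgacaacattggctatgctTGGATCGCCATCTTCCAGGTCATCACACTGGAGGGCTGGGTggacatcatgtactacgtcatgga
The run codes for part of the pore loop of the first of the channel's repeats. Windows of 50 bases were likewise taken from each gene's transcript with the longest coding sequence. Of these, 19 of 8334 of Cacna1g and 1 of 8181 of Cacna1h recurred in transcripts of Cacna1i, the remaining T-type gene. Scn4b and Cacna1c had 0 such windows. Of counts divided by length for Cacna1g and Cacna1h together, Cacna1h took 26.7% ± 9.22 in heterozygotes and 16.04% ± 3.25 in knockouts; the ranges, 17.7% to 42.1% and 11.4% to 20.5%, overlapped. The difference of -10.7 percentage points became -6.87 without heterozygote 2, which alone stood at 42.1%.

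**Figure D2:**
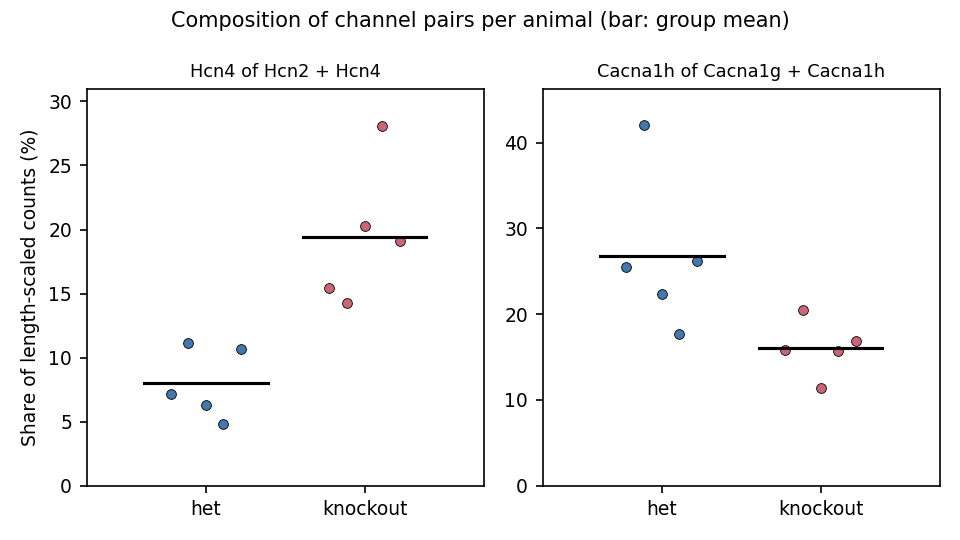
Share (percent of length-scaled counts) of Hcn4 in the sum of Hcn2 and Hcn4, and of Cacna1h in the sum of Cacna1g and Cacna1h, in every animal by genotype; points are animals and lines are group means over 5 animals. The share of Hcn4 separates the groups, while that of Cacna1h overlaps.

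Between genes, levels can be compared only per length, taken here as the exon length in the count table's annotation. How far the order of genes depends on that annotation was not tested. In CPM per kb of exon, the order of mean levels in heterozygotes was Hcn2 at 26.0, Cacna1c at 13.9, Cacna1g at 6.34, Cacna1h at 2.56, Hcn4 at 2.36, Scn4a at 1.25 and Scn4b at 0.849. The same order between neighbours held in 5 of 5 animals except for Cacna1h over Hcn4, which held in 3, and Hcn4 over Scn4a, which held in 4. In knockouts the order of mean levels per kb was Cacna1c at 18.6, Cacna1g at 13.1, Hcn2 at 10.6, Hcn4 at 2.55, Cacna1h at 2.51, Scn4a at 0.333 and Scn4b at 0.139. Hcn2 therefore moved from the first place to the third. Among knockouts, Cacna1g exceeded Hcn2 in 4 of 5 animals, Hcn4 exceeded Cacna1h in 3 and Scn4a exceeded Scn4b in 3.

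The ranges of Hcn4 and Cacna1h among heterozygotes were wide. The highest heterozygote was 4.496 times the lowest for Hcn4 and 5.50 times for Cacna1h, against 1.37 times for Cacna1c and 1.62 times for Cacna1g. Cntn2, an adhesion molecule that marks the conduction system, stood at 21.3, 63.6, 19.5, 3.33 and 30.7 CPM in heterozygotes 1 to 5 and between 18.1 and 29.4 CPM in knockouts. For all 3 genes heterozygote 2 was the highest and heterozygote 4 the lowest. The same held for Scn4b, Hcn2 and Cacna1g, so for 5 of the 7 channel genes in all, and for 12.7% of all tested genes. Of the 7 conduction markers that passed the filter, heterozygote 2 was the highest for 6 and heterozygote 4 the lowest for 3, with both true of 2; Cntn2 was singled out after its values were seen. Gja5, the connexin of atria and conduction fibres, was also highest in heterozygote 2, at 31.4 CPM, but its lowest heterozygote was animal 3, at 11.3 CPM. The summed nodal and conduction markers ran from 61.3 to 162 CPM in heterozygotes and from 90.2 to 122 CPM in knockouts. Among them Isl1, a transcription factor of sinus node cells, was at 0 in every animal. Of the 7 markers tested, 0 were called by edgeR or DESeq2 and 1 by limma, and 1 had an unadjusted p below 0.05 in edgeR. The part of conduction cells in the levels of Hcn4 and Cacna1h was not tested.

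**Figure D3:**
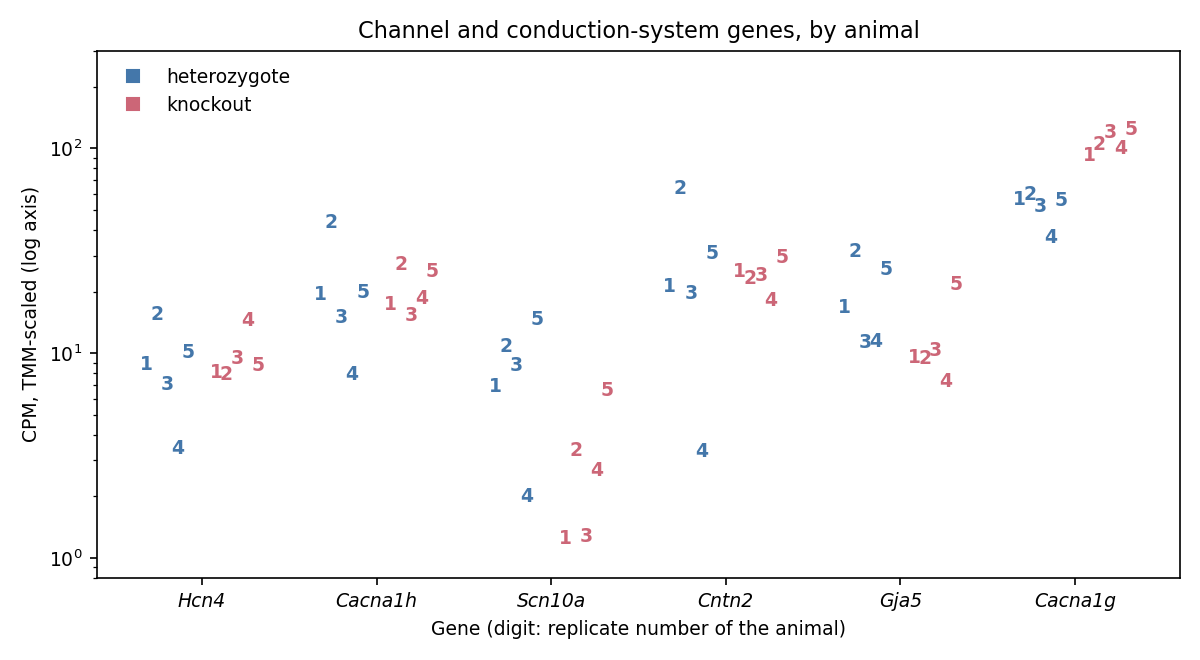
Level in CPM (log axis) of channel genes and of conduction markers, with each animal drawn as its replicate number, heterozygotes and knockouts side by side for each gene. Heterozygotes 2 and 4 mark the top and the bottom of the heterozygotes for Hcn4, Cacna1h, Cntn2 and Cacna1g.

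Of the other cell types, atrial markers summed to 30.4 to 121 CPM in heterozygotes and 28.3 to 410 CPM in knockouts, with 1 of 6 called (Nr2f2, lower in the knockout) and a median log2 fold change of 1.37. The atrial light chain Myl7 ran from 0.20 to 36.1 CPM in heterozygotes and from 2.15 to 177 CPM in knockouts. The endothelial sum was 445 to 665 CPM in heterozygotes and 284 to 488 CPM in knockouts, with 2 of 8 called by edgeR (Egfl7 and Cldn5, both lower) and 5 by DESeq2, and all 8 were lower at an unadjusted p below 0.05 in edgeR. The macrophage sum was 13.1 to 31.1 CPM and 7.50 to 10.2 CPM, with 1 of 3 called by edgeR (Csf1r, lower) and 4 of the 7 that DESeq2 tested. Of smooth muscle and pericyte markers, 1 of 6 was called: Cspg4 rose from 37.0 ± 6.39 to 132 ± 21.3 CPM (log2 fold change 1.84, edgeR adjusted p = 1.23e-06), without overlap. The median log2 fold change of the 6 was -0.34. Myh11, Pdgfrb, Rgs5 and Kcnj8 were lower in the knockout and Cnn1 was higher, none of them called. Whether RNA of these cell types plays a part in the channel values was not tested. Skeletal muscle markers, relevant because Scn4a is a skeletal muscle gene, summed to 0.588 to 1.89 CPM in heterozygotes and 1.17 to 1.85 CPM in knockouts, with Myod1 and Pax7 at 0 in every animal. Fibroblast, smooth muscle, nerve and red blood cell sums overlapped between the groups, and the last pair stayed at or below 6.28 CPM.

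Among genes related to the 7 channels by function, 71 were in the table, 46 passed the filter on low counts and 11 changed, 5 higher and 6 lower, or 23.9% of those tested, against 18.9% of all tested genes. The median log2 fold change of the 46 was 0.026, against 0.0023 over all tested genes. The plot of log2 fold changes by list gives tested genes with their 95% intervals.

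**Figure D4:**
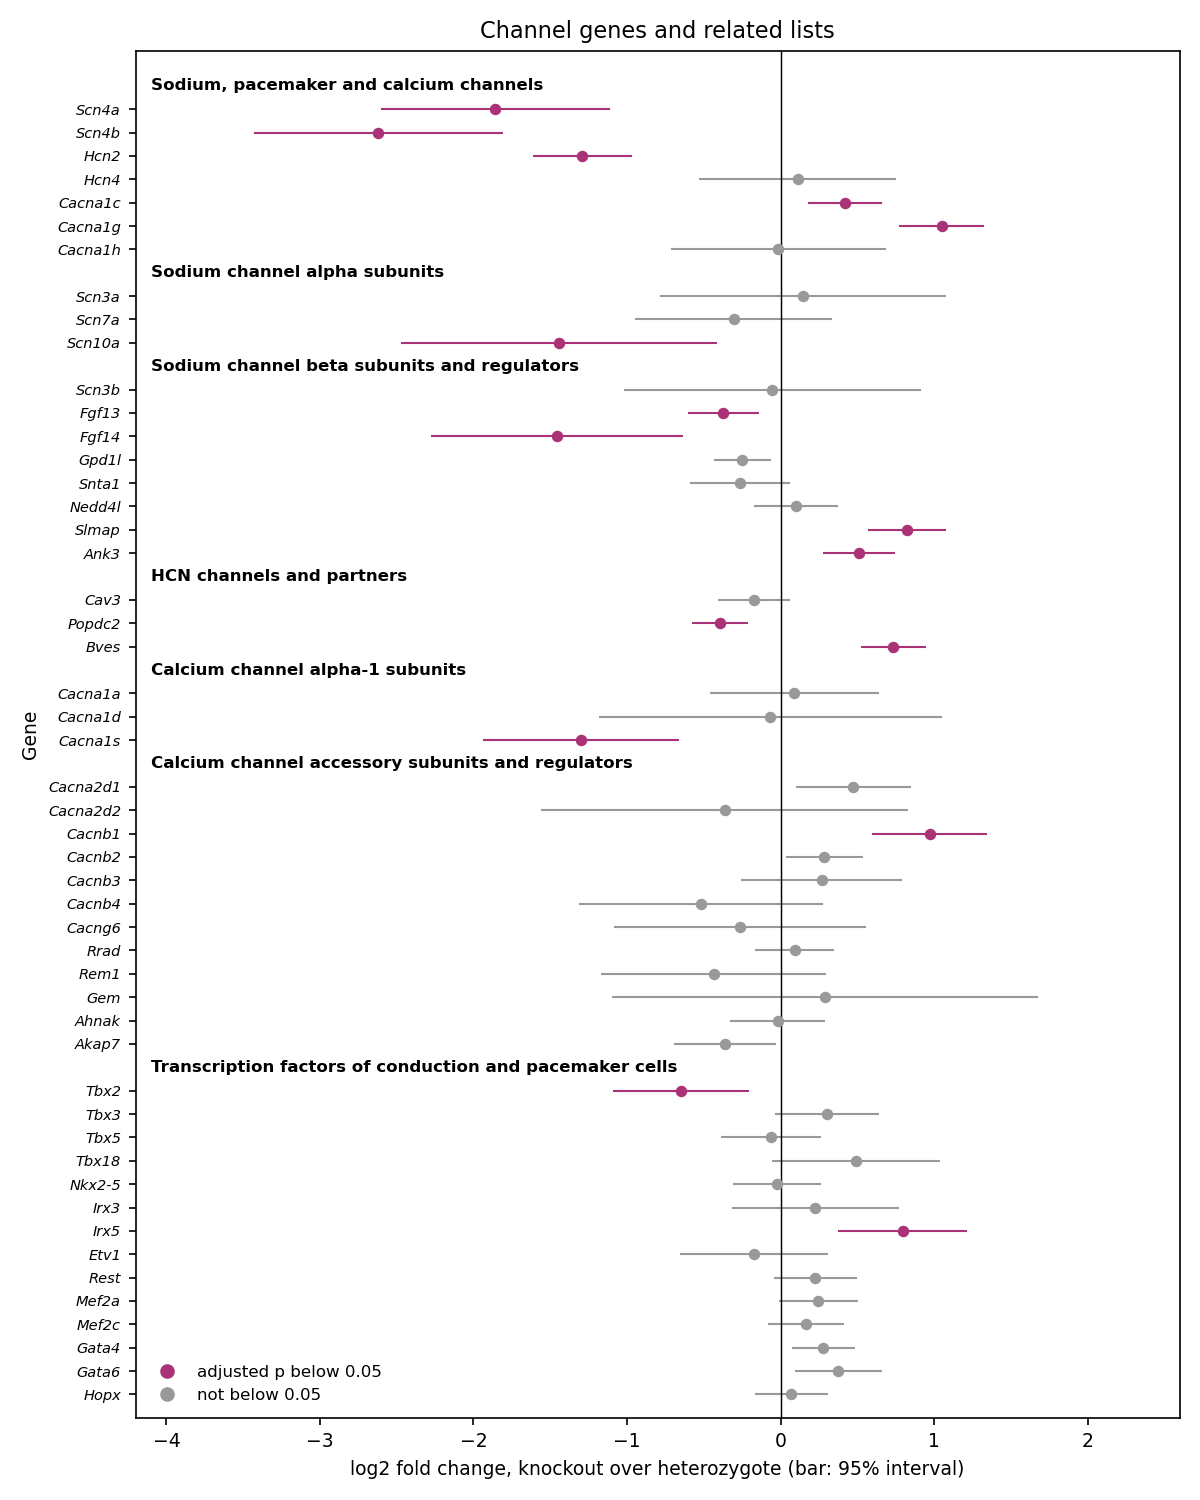
Log2 fold change, knockout over heterozygote, of the channel genes and of tested genes in the related lists; each point is 1 gene, bars are 95% intervals of the fit, dark points have an edgeR adjusted p below 0.05, and the line at 0 marks no change. Scn4b lies farthest to the left of the channel genes and Cacna1g farthest to the right.

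Of sodium channel pore genes other than Scn4a, 4 of 9 passed the filter and 1 was called. This was Scn10a, a pore gene of sensory neurons that is also known from cardiac conduction, at 8.60 ± 4.70 CPM in heterozygotes and 3.02 ± 2.18 CPM in knockouts (log2 fold change -1.44, SE 0.481, edgeR adjusted p = 0.0498). Its groups overlapped, and its call was kept without heterozygote 4 or knockout 5 and lost without any of the other 8 animals (edgeR adjusted p up to 0.122). The median log2 fold change of the list was -0.08. Of the beta subunits and regulators, 9 of 12 passed the filter, 2 were higher and 2 lower. Slmap, a membrane-anchored protein linked to sodium channel trafficking, rose from 313 ± 52.0 to 554 ± 49.5 CPM (log2 fold change 0.82, edgeR adjusted p = 0.000276), and Ank3, the ankyrin that anchors sodium channels, rose from 82.6 ± 10.2 to 118 ± 14.1 CPM (0.51, edgeR adjusted p = 0.00482). Fgf13 and Fgf14, intracellular fibroblast growth factor homologues that bind sodium channels, fell by 0.37 and 1.46 on the log2 scale (edgeR adjusted p = 0.0275 and 0.0160), with overlapping groups. Fgf13 lost its call without heterozygote 5, knockout 1 or knockout 3 (edgeR adjusted p = 0.0678, 0.0693 and 0.0717), and up to 133 exon bases of Fgf14 lie opposite another annotated transcript. The list's median log2 fold change was -0.25.

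In the list of HCN channels and partners, 4 of 7 genes passed the filter, 1 was higher and 1 lower, and the median log2 fold change was -0.28. Bves and Popdc2 encode the Popeye proteins, which bind cyclic AMP and are needed for normal pacemaking. Bves rose from 129 ± 13.4 to 215 ± 18.2 CPM (log2 fold change 0.73, edgeR adjusted p = 0.000155) and Popdc2 fell from 1279 ± 120.1 to 973 ± 54.3 CPM (-0.39, edgeR adjusted p = 0.00531), each without overlap of the groups; Popdc2 shares up to 125 exon bases with another annotated transcript.

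Of the calcium channel pore genes beyond the 3 described, 3 of 7 passed the filter and 1 fell, with a median log2 fold change of -0.07. Cacna1s, the L-type pore of skeletal muscle, went from 2.87 ± 0.912 to 1.14 ± 0.269 CPM (log2 fold change -1.30, edgeR adjusted p = 0.00714) without overlap; it shares 1212 exon bases with an annotated transcript on the opposite strand, so its reads are uncertain. Of accessory subunits and regulators, 12 of 19 passed and 1 rose, with a median of 0.04. Cacnb1, a beta subunit best known from skeletal muscle, rose from 8.25 ± 1.92 to 16.3 ± 2.13 CPM (log2 fold change 0.97, edgeR adjusted p = 0.00147) without overlap. The main cardiac partners of Cacna1c did not pass the test, with log2 fold changes of 0.47 for Cacna2d1 (edgeR adjusted p = 0.0742) and 0.29 for Cacnb2 (edgeR adjusted p = 0.109).

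Of transcription factors of conduction and pacemaker cells, 14 of 17 passed the filter, with 1 higher, 1 lower and a median log2 fold change of 0.23. Irx5, a homeobox factor that shapes the ventricular repolarisation gradient, rose from 25.0 ± 8.26 to 43.4 ± 5.75 CPM (log2 fold change 0.80, edgeR adjusted p = 0.0113), and Tbx2, a T-box repressor of the chamber programme, fell from 7.12 ± 1.23 to 4.55 ± 1.01 CPM (-0.65, edgeR adjusted p = 0.0406). The groups did not overlap for either gene, and the call of Tbx2 was kept without heterozygote 1, heterozygote 5 or knockout 4 and lost without any of the other 7 animals (edgeR adjusted p of 0.0536 to 0.0886). Tbx3, Rest, Gata4 and Gata6 had log2 fold changes of 0.30, 0.23, 0.28 and 0.38 and did not pass the test (edgeR adjusted p = 0.202, 0.235, 0.0559 and 0.0605).

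Genes whose log2 CPM followed each channel gene most closely over the 10 animals were picked from 8365 tested genes that averaged 10 CPM or more, and Pearson's r is given as a description. Points from both genotypes enter, so a gene that separates the groups resembles others that do. Scn4a was followed by Dym (0.943) and Hadha (0.941), the latter an enzyme of mitochondrial fatty acid oxidation. Scn4b was followed by Rxrg, a retinoid receptor (0.973), and Rpl3l, the muscle form of a ribosomal protein (0.973). Hcn2 was followed by Cpt2 (0.990), which brings fatty acids into mitochondrial oxidation, and Dgat2 (0.988), which completes triglyceride synthesis. Cacna1c was followed by Mga (0.989) and C230081A13Rik (0.984), and Cacna1g by Fbn2 (0.972), a fibrillin. For Hcn4, whose groups overlapped, these were Mri1 (0.929) and Fntb (0.925), and for Cacna1h they were Elp2 (0.954) and Fkbp9 (0.940).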

How the data were processed

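Poly(A) RNA of sorted cardiomyocytes from 10 mice (10 ng of total RNA, 8 PCR cycles, 500 pg of cDNA per library) was read. The deposited values are whole-number read counts per gene, which the authors made with featureCounts 1.5.1, per the file headers, against a UCSC mm10 annotation. The submitters' processing notes name CASAVA 1.8, STAR 2.5.3a and Subread 1.5.2; the alignment names in the header are those of another aligner, so the aligner is uncertain. With that program's defaults, strand is ignored, and reads with more than 1 alignment, or over more than 1 gene, are dropped. The table has 14 columns of counts, of which 4 match no sample and were not used. Totals were 8086656 to 25237696.

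Genes were filtered with edgeR 4.0.16 (R 4.3.3; filterByExpr, minimum count 10, minimum total count 15), scaled with TMM factors and compared by the quasi-likelihood F test with no covariate and all 10 samples in the fit. Benjamini-Hochberg adjustment covered the 11870 genes tested, with calls at an adjusted p below 0.05. Means are ± SD over 5 animals, the 95% intervals are those of the fit, and log2 CPM has a prior count of 1. The procedure was tested on simulated data. Alternatives were RLE and upper-quartile scaling, library totals, no filter, a mean of at least 5 CPM, the replicate number as a block, DESeq2 1.42.0, limma 3.58.1 (voom) and leaving out each animal.

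The channel genes, the related lists and the cell type markers were chosen with earlier results of these data known. Named with values are Actn2, the 7 channel genes, every related gene that was called, and for each channel gene the 2 genes of closest pattern; the conduction markers and the related genes that did not pass were named after their values were seen. Motifs and shared sequence runs were searched in RefSeq promoters and GENCODE M21 transcripts (mm10). A few genes that this rule or the lists hold, and the shares that need them, are not reported here, though list counts and medians include them; the share of Hcn4 in the pair with Hcn2 was chosen after seeing the data.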

Additional observations from a re-analysis of the deposited data

Results flagged for a closer look

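Each group of 5 animals was examined for a highest or lowest value that stood far from the rest, as a gap to the nearest animal above 0.71 of the group's range. Of 44 groups examined for 19 named genes, the totals and the shares, 3 met this, where chance alone gives 1 in 20, or about 2.2. Cacna1g stood at 5.20 log2 CPM in heterozygote 4 against 5.71 in the nearest heterozygote, a gap of 0.725 of the range. Fgf14 stood at 0.256 log2 CPM in the same animal against 1.402, a gap of 0.734. Heterozygote 1 had 25237696 total counts against 10309615 in the next, a gap of 0.870.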

How the results depend on the processing

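The 5 channel genes that were called kept their direction and their call under RLE, upper-quartile and library-total scaling, without a filter, with the replicate number as a block, with DESeq2 and with limma's voom, and without any 1 of the 10 animals; with a filter at a mean of 5 CPM, 4 were called because Scn4b, like Fgf14 and Cacna1s, was no longer tested. Leaving out 1 animal at a time, the log2 fold change ran from -2.31 to -1.63 for Scn4a, -3.02 to -2.48 for Scn4b, -1.40 to -1.20 for Hcn2, 0.35 to 0.49 for Cacna1c (edgeR adjusted p up to 0.0470) and 0.95 to 1.10 for Cacna1g. The pair that did not pass changed sign and stayed above the threshold: Hcn4 ran from -0.091 to 0.38, below 0 without heterozygote 4 or knockout 4, and Cacna1h from -0.22 to 0.41. Cacna1h was also above 0 with library totals (0.082), the replicate block (0.12) and voom (0.15); the cause was not tested. Besides the animals left out, Scn10a lost its call with library totals and DESeq2, Fgf13 with library totals, and Tbx2 with library totals, no filter and voom. Over all genes, 2079 to 2639 were called across the other settings and 1699 to 2258 with 1 animal left out, against 2241. Replicate numbers were not taken to pair the samples. Same-numbered samples deviated with correlations of -0.0604 to 0.185, and 2 of 5 heterozygotes correlated best with their own number. So few animals cannot exclude a pairing. With the replicate number as a block, 2182 genes were called. The knockout values of Scn4b rest on 3 to 12 counts each. The share of Cacna1h differed by -12.98 to -6.87 percentage points with 1 animal left out, the smallest without heterozygote 2. The labels give no sex, litter or sequencing batch, so none could be a covariate.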
